A study of Mus musculus with 12 samples.

Results

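The comparison described here asked how the response of the mammary gland to pregnancy differed between its 2 epithelial layers. It was the difference between the luminal change (18.5 days of pregnancy, 18.5 dP, minus virgin) and the basal change over the same stages, and it used 8 of the 12 libraries of the series. The 4 groups were luminal virgin, luminal 18.5 dP, basal virgin and basal 18.5 dP, with 2 libraries each. All came from wild-type FVB/N females that received no treatment, and no transgene was involved. Luminal and basal cells were sorted by flow cytometry from the same glands and lysed for RNA. The design text gives 2 mice per stage, and their age is not given in the sources used here. The 4 libraries of day 2 of lactation entered the fit for the estimate of the spread and are otherwise given only as levels.

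The mammary duct and alveolus are built of 2 layers. Luminal cells line the lumen and include hormone-sensing cells, which carry the receptors for oestrogen and progesterone, and alveolar cells, which make milk. Basal cells surround them, are largely contractile myoepithelium, and lie on a basement membrane of collagen IV and laminins. During pregnancy progesterone, prolactin and placental hormones drive alveoli to form. Prolactin signals through JAK2 and the transcription factor STAT5 to casein genes, and fat, lactose and secreted protein production is built up before birth.

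Each of the 8 libraries held between 20.39 M and 24.10 M counts. Replicate libraries are taken as separate animals from the design text, and 2 libraries say little about the spread within one group. The layer markers matched the labels in all 8 libraries. The luminal keratins Krt8 and Krt18 and the surface protein Epcam were higher in every luminal than in every basal library, and the basal keratins Krt5 and Krt14 and smooth muscle actin (Acta2) were higher in every basal library. Milk protein genes held 0.969% and 1.04% of the counts of the virgin luminal libraries, 17.3% and 20.4% of the pregnant luminal ones, 0.0202% and 0.0223% of the virgin basal ones and 0.657% and 0.440% of the pregnant basal ones. The luminal libraries were run in 1 lane and the basal ones in another, per the run names in the labels. An offset between lanes that is the same at both stages cancels in the difference of changes, whereas one that differs between stages cannot be told apart from it.

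Of 15969 genes tested, 4908 (30.7%) had a pregnancy change that differed between luminal and basal cells (edgeR quasi-likelihood F-test, Benjamini-Hochberg adjusted p below 0.05, called below). The difference was positive, meaning a higher change in luminal cells, for 2242 genes (14% of those tested) and negative for 2666 (16.7%). With library size alone as the scaling the counts were 1008 and 4614. The luminal change taken by itself was called at 7335 genes (45.9%) and the basal change at 4794 (30%). The log2 changes of all genes had an SD of 1.38 in luminal and 0.897 in basal cells, and they correlated at r = 0.324 across genes, which are not independent replicates. Most called differences were at genes with a called change in only 1 layer, which does not show that the other layer stayed still. Luminal cells rose with no call in basal cells at 1219 genes and fell with no call in basal cells at 1388. Basal cells rose with no call in luminal cells at 502 genes and fell with no call in luminal cells at 390. At 203 genes the difference was called and neither change was.

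A smaller set of 726 genes (4.55%) passed the test in luminal cells, in basal cells and in the difference, with the 2 changes running in opposite directions. Luminal cells rose and basal cells fell at 299 of them (1.87%), and luminal cells fell and basal cells rose at 427 (2.67%). At the remaining called genes that moved in both layers the directions were the same and the sizes unequal: 188 rose more and 204 fell more in luminal cells, and 48 rose more and 40 fell more in basal cells. Of the 4908 called genes 2986 were also called without each of the 8 libraries in turn, and 245 of the 726 kept their opposite calls in all 8 of those fits. The count of 726 fell to 420 without the second basal 18.5 dP library. With library size alone as the scaling, the opposite set held 149 genes that rose in luminal cells and 568 that fell, and the median difference of all genes moved from -0.05 to -0.39.

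**Figure D1:**
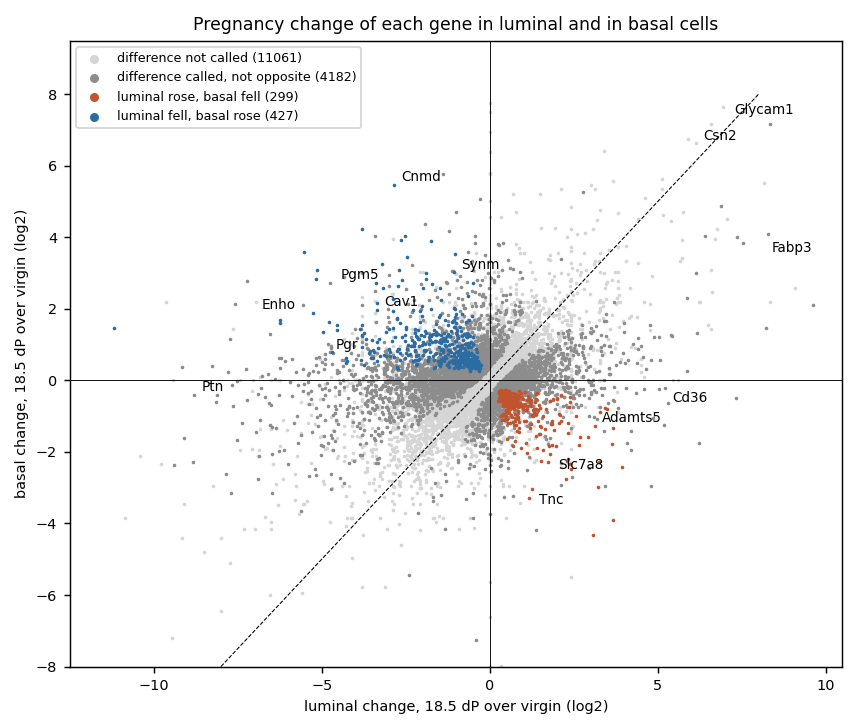
Log2 change from virgin to 18.5 dP in luminal cells (x axis) against basal cells (y axis) for the 15969 genes tested, 1 point per gene, with the line of equal change dashed. The 299 genes that rose in luminal and fell in basal cells fill the lower right and the 427 with the reverse pattern the upper left, while milk protein genes such as Csn2 lie near the dashed line.

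From each opposite pattern 12 genes were named. They had the largest value of the smaller of their 2 changes, among genes whose difference stayed called and within 0.58 (log2) when any 1 library was left out. The first pattern is luminal up and basal down. Tnc (chr4:63959785-64047015, GRCm38.p6), which encodes the matrix glycoprotein tenascin C, stood at 58.7 and 57.6 CPM in virgin and at 115 and 164 CPM in pregnant luminal libraries. In basal libraries Tnc stood at 86.9 and 59.6 CPM in virgin and at 8.16 and 9.64 CPM in pregnant mice. In virgin mice the second basal library lay just above both luminal ones and the first further above. At 18.5 dP both luminal libraries lay far above both basal ones. The luminal change of Tnc was 1.26 ± 0.18 (log2, SE, n = 2 libraries per group, as in all values below) and the basal change -3.04 ± 0.21.

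Slc7a8 (chr14:54722215-54781886), a transporter of neutral amino acids, stood at 2.94 and 2.67 CPM in virgin luminal and at 7.75 and 12 CPM in pregnant luminal libraries. Its basal levels were 7.23 and 11.4 CPM in virgin and 2.47 and 1.98 CPM in pregnant mice. The layer with the higher level was basal in virgin and luminal in pregnant mice, without overlap at either stage. Adamts5, a protease of the matrix proteoglycans, rose in luminal cells from 0.860 and 1.22 CPM to 8.20 and 10.2 CPM and fell in basal cells from 24.9 and 22.8 CPM to 8.38 and 11.5 CPM. Pregnancy thus brought the 2 layers, which were apart in virgin mice, to overlapping levels of Adamts5. Dkk3, a secreted member of the Dickkopf family, rose from 3.51 and 3.04 CPM to 6.85 and 8.28 CPM in luminal cells and fell from 205 and 204 CPM to 62.0 and 102 CPM in basal cells, which kept the higher level.

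Rapgef5, an exchange factor for the small GTPase Rap, showed the smallest error of the 12. Its luminal level rose from 15.7 and 15.4 CPM to 70.3 and 87.7 CPM, and its basal level fell from 14.7 and 17.0 CPM to 6.94 and 6.96 CPM. In virgin mice the 2 layers held the same level within their spread. Lmo2, a LIM-only cofactor of transcription, rose by 1.85 ± 0.22 in luminal and fell by 1.21 ± 0.27 in basal cells (log2). Gda, which encodes the guanine deaminase cypin, rose by 2.11 ± 0.23 and fell by 1.14 ± 0.26. Grrp1, Mab21l4, Pdzrn3 and Sowahb rose by 1.96, 1.42, 1.39 and 1.24 in luminal cells and fell by 1.82, 1.90, 1.56 and 1.2 in basal cells. Adgrg2, an adhesion G protein-coupled receptor, fell by 3.28 ± 0.26 in basal cells, from 37.0 and 24.0 CPM to 2.73 and 3.54 CPM. Its luminal rise of 1.17 ± 0.27 was 0.81 and no longer called without the first luminal 18.5 dP library (edgeR adjusted p = 0.0559), and 0.68 with library size alone as the scaling (adjusted p = 0.0514).

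The 12 genes named from the reverse pattern, luminal down and basal up, included Cav1, Pgm5, Dmpk and Lmo7. Cav1 (chr6:17306335-17341328), the scaffold protein of caveolae, fell from 106 and 82.4 CPM to 7.53 and 10.9 CPM in luminal cells. In basal cells Cav1 rose from 323 and 338 CPM to 1169 and 1429 CPM. Basal cells were higher at both stages, and the gap between the layers widened. Pgm5, a phosphoglucomutase-like protein of cell adhesions, fell from 21.7 and 19.5 CPM to 2.28 and 2.32 CPM in luminal cells and rose from 112 and 127 CPM to 609 and 825 CPM in basal cells. Dmpk, the kinase mutated in myotonic dystrophy, fell by 1.49 ± 0.19 and rose by 2.59 ± 0.19. Lmo7, an adaptor of adherens junctions, fell by 2.99 ± 0.17 and rose by 1.44 ± 0.15.

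Cnmd, which encodes the secreted protein chondromodulin, exchanged layers. It stood at 13.6 and 7.26 CPM in virgin luminal and at 0.417 and 0.454 CPM in virgin basal libraries. At 18.5 dP Cnmd was at 1.12 and 1.77 CPM in luminal and at 13.2 and 26.0 CPM in basal libraries. The groups did not overlap, and the layers had swapped rank. Fut9, a fucosyltransferase, swapped in the same sense: 23.3 and 16.3 CPM fell to 0.627 and 0.394 CPM in luminal cells, and 1.67 and 1.25 CPM rose to 5.42 and 5.52 CPM in basal cells. Enho, which encodes the peptide adropin, fell from 15.0 and 14.2 CPM to 0.179 and 0.197 CPM in luminal cells and rose from 8.10 and 5.6 CPM to 20.5 and 23.7 CPM in basal cells. Hcar2, a receptor for hydroxycarboxylic acids, fell from 31.4 and 25.3 CPM to 5.91 and 5.77 CPM and rose from 11.5 and 18.7 CPM to 44.4 and 72.9 CPM. In all 3 genes the virgin luminal libraries were above the virgin basal ones, and the pregnant luminal libraries were below the pregnant basal ones.

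Nqo1, an antioxidant quinone reductase, fell by 4.54 ± 0.24 in luminal and rose by 1.56 ± 0.16 in basal cells. Gmpr, the GMP reductase, fell by 2.09 ± 0.29 and rose by 1.96 ± 0.29, and Kif21b, a kinesin motor, fell by 1.45 ± 0.26 and rose by 2.26 ± 0.24. Alcam, a cell adhesion molecule of the immunoglobulin family, fell from 159 and 127 CPM to 13.8 and 24.8 CPM in luminal cells and rose from 6.75 and 9.12 CPM to 26.3 and 17.2 CPM in basal cells. Subtraction of an estimated carry-over of luminal RNA from the basal libraries moved the difference further from 0 for Tnc (5.02), Sowahb (3.57), Cnmd (-9.56) and Alcam (-5.12). Subtraction of basal carry-over from the luminal libraries did the same for Pgm5 (-14.43), Cav1 (-6.42), Enho (-8.89) and Dkk3 (3.18). The value of Pgm5 is not an effect size, since its pregnant luminal levels lay below the estimated carry-over and were set to 0. The other 16 of the 24 genes moved by less than 1.5 times under either subtraction.

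**Figure D2:**
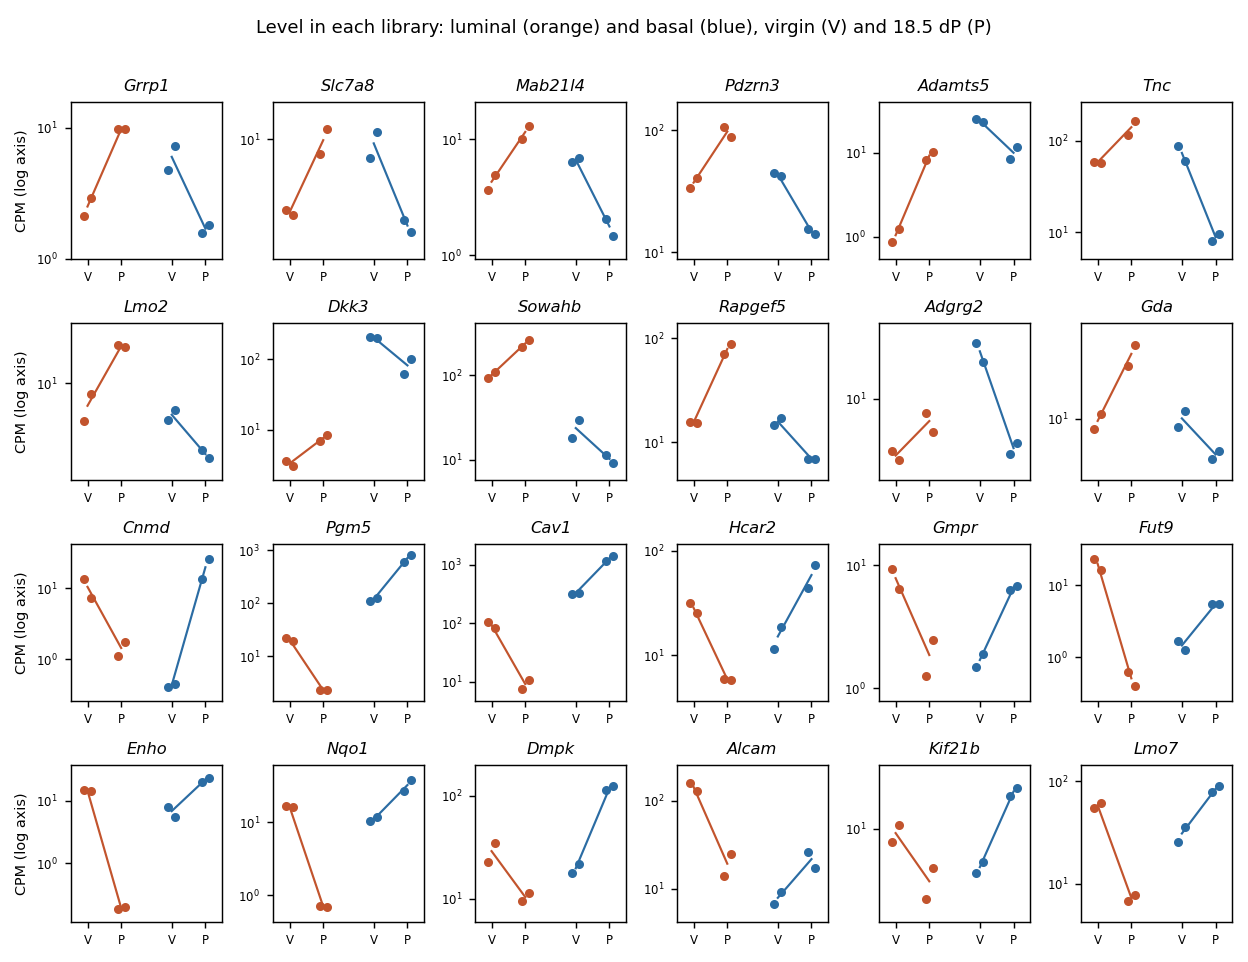
Level of the 24 named opposite genes in each library (points, CPM on a log axis) and the mean of each group (line ends), luminal in orange and basal in blue, virgin (V) and 18.5 dP (P). The upper 12 rise in luminal and fall in basal cells, for example Tnc from 58.7 and 57.6 to 115 and 164 CPM against 86.9 and 59.6 to 8.16 and 9.64 CPM, and the lower 12 do the reverse.

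The libraries of day 2 of lactation, which the rule did not use, showed where these genes stood after birth. Of the 12 genes of the first pattern 9 kept both directions relative to the virgin mean. Slc7a8 reached 36.5 and 31.8 CPM in lactating luminal cells, and Adamts5 reached 109 and 162 CPM, both above the pregnant libraries. The exceptions were Mab21l4, at 0.0764 and 0 CPM in lactating luminal cells, Pdzrn3, at 28.4 and 26.7 CPM in lactating luminal cells, and Dkk3, at 217 and 219 CPM in lactating basal cells. Of the 12 genes of the reverse pattern 11 kept both directions, and the exception was Kif21b with 15.4 and 13.9 CPM in lactating luminal cells. These comparisons share the virgin libraries with the pregnancy changes and are given as levels, without a test.

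The products of milk behaved in 2 ways. All 12 listed milk protein genes were tested, and 11 rose in luminal cells and 11 in basal cells, with a called difference at 1 (higher in luminal, 8.33% against 30.7% of all genes) and a median difference of -0.23. Csn2 (beta-casein) stood at 542 and 864 CPM in virgin and 44804 and 53657 CPM in pregnant luminal libraries, and at 7.93 and 16.8 CPM and 1479 and 967 CPM in basal libraries. Csn1s1 (alpha-S1-casein) rose by 4.61 in luminal and 5.12 in basal cells, and Wap (whey acidic protein) by 6.6 and 7.17. Without the second luminal 18.5 dP library the difference of Wap went from -0.57 to -1.26 and was called (edgeR adjusted p = 0.0198). In the fit of all libraries the 1 called gene was Glycam1, a secreted mucin, which rose by 8.34 in luminal and 7.16 in basal cells (difference 1.18 ± 0.33, edgeR adjusted p = 0.0168). Without the second basal 18.5 dP library the difference of Glycam1 was 1.05 (adjusted p = 0.0561), without the second luminal 18.5 dP library it was 0.84 (adjusted p = 0.0521), and after luminal carry-over was subtracted it was 4.88. The 4.88 rests on pregnant basal levels of Glycam1 near the share subtracted and is not read as an effect size. The mean basal level of the 12 genes was between 1.58% and 5.76% of the luminal level in virgin mice and between 2.18% and 4.79% in pregnant mice. The milk protein share of the basal libraries corresponded to 2.01% and 2.22% of a virgin luminal library and to 3.48% and 2.33% of a pregnant one, and the part of luminal RNA in the basal milk protein counts was not tested.

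Milk fat synthesis, in contrast, rose mainly in luminal cells. Of 23 genes, all tested, 17 had a higher change in luminal cells and 1 a lower one (78.3% called, against 30.7% of all genes). The median difference was 1.23. Luminal cells rose at 20 and fell at 2, and basal cells rose at 6 and fell at 1. Acaca (chr11:84129635-84401651), the acetyl-CoA carboxylase that commits carbon to fatty acids, rose from 73.7 and 76.4 CPM to 483 and 807 CPM in luminal cells. Its basal level was 72.7 and 66.2 CPM in virgin and 59.1 and 56.4 CPM in pregnant mice. The mean basal level of Acaca was thus 92.5% of the luminal one in virgin and 8.96% in pregnant mice. Fasn, the fatty acid synthase, went from 118% to 14.5% of the luminal mean in basal cells, and Acly, the ATP citrate lyase, from 104% to 20% (both named after their values were seen). The basal fall of Acly by 0.59 was called, but not without the second basal 18.5 dP library (edgeR adjusted p = 0.0536) or the first basal virgin library (adjusted p = 0.0734).

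Cd36, a fatty acid translocase of the plasma membrane, had the largest difference of the fat genes (5.42 ± 0.41). It rose from 20.5 and 28.4 CPM to 695 and 1120 CPM in luminal cells and stood at 82.2 and 141 CPM and then 79.2 and 115 CPM in basal cells. Its level was higher in basal cells before pregnancy and higher in luminal cells at 18.5 dP. Lpl, the lipoprotein lipase, and Fabp3, which carries fatty acids inside the cell, rose in both layers, by 5.87 and 8.29 in luminal and by 2.29 and 4.09 in basal cells. Their basal levels at 18.5 dP were 3.51% and 3.10% of the luminal means, within the range of the milk proteins. After subtraction of luminal carry-over the differences of Lpl and Fabp3 grew to 5.32 and 6.54, and the basal change of Lpl, at 0.54, was no longer called (adjusted p = 0.197). Dgat2, which adds the last acyl chain to triglyceride, was the 1 gene called with the reverse sign (named after its values were seen). With the mouse as replicate block 3 genes were called with that sign. Dgat2 fell from 33.9 and 34.1 CPM to 4.03 and 4.78 CPM in luminal cells, while its basal level was 36.9 and 43.6 CPM and then 42.6 and 40.8 CPM. Dgat1, the other enzyme of that step, moved the other way, rising by 0.92 in luminal cells with a difference of 1.26 ± 0.18 (also named after its values were seen).

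**Figure D3:**
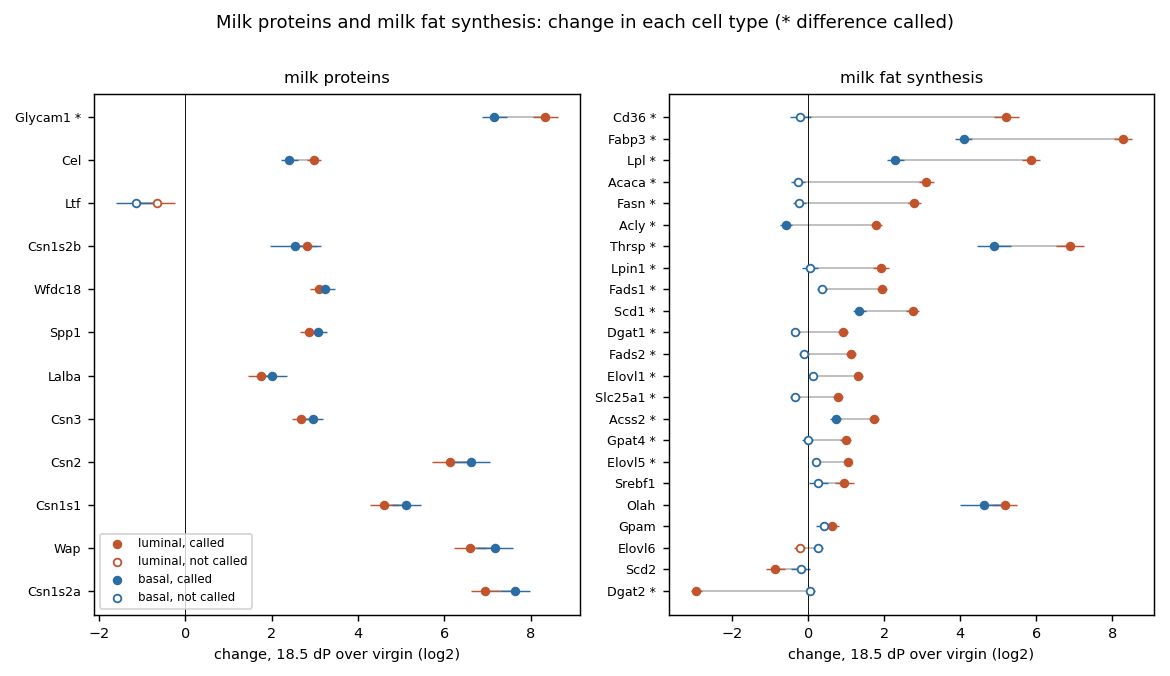
Log2 change from virgin to 18.5 dP in luminal (orange) and basal (blue) cells for 12 milk protein genes (left) and 23 milk fat genes (right), with SE; filled points passed the test in that cell type and a star marks a called difference. The 2 points nearly coincide for most milk proteins, whereas 17 fat genes have the luminal point further to the right and Dgat2 is the 1 gene called in the other direction.

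Genes of the other milk components differed at fewer members. Of 8 genes of fat globule secretion 2 were higher and 0 lower in luminal cells (25% called, against 30.7% of all genes). Among the 2 was Plin2, the lipid droplet coat protein, which rose by 3.69 in luminal and 2.21 in basal cells. The difference of Plin2 was 1.49 and grew to 2.52 after luminal carry-over was subtracted. Of 10 tested lactose genes (11 listed) 3 were higher and 1 lower (40% called, against 30.7% of all genes). B4galt1, the galactosyltransferase of lactose synthase, rose from 167 and 204 CPM to 627 and 761 CPM in luminal cells and stood at 46.1 and 65.3 CPM and then 66.7 and 68.0 CPM in basal cells. Slc2a1, the glucose transporter GLUT1, ran in opposite directions, at 249 and 247 CPM and then 344 and 351 CPM in luminal and at 343 and 378 CPM and then 202 and 205 CPM in basal cells. GLUT1 was thus higher in basal cells of virgin mice and higher in luminal cells of pregnant mice. The luminal change of Slc2a1 was 0.49 ± 0.10 and turned to -0.02 when library size alone was used for scaling.

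Of 15 transport genes 6 were higher in luminal cells and 1 lower (46.7% called, against 30.7% of all genes). Slc30a2, which moves zinc into secretory vesicles, rose from 3.16 and 2.5 CPM to 21.3 and 22.5 CPM in luminal cells and stood at 1.91 and 2.5 CPM and then 1.88 and 1.19 CPM in basal cells. Atp2c2, a calcium pump of the Golgi, rose by 2.23 ± 0.21 in luminal cells with a difference of 2.69 ± 0.30. Tfrc, the transferrin receptor, ran in opposite directions. It rose from 119 and 103 CPM to 302 and 280 CPM in luminal cells and fell from 214 and 187 CPM to 120 and 90.2 CPM in basal cells. Virgin basal libraries were therefore above virgin luminal ones, and the order was reversed in pregnant mice. Slc7a5, the large neutral amino acid transporter LAT1, rose by 1.92 ± 0.11 in luminal cells (difference 1.64 ± 0.15).

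The folding machinery of the endoplasmic reticulum moved apart between the layers. This system folds secreted proteins, and when it is loaded the factors ATF6 and XBP1 raise its genes through a promoter element, the ER stress response element. Of 20 listed genes, all tested, 12 had a higher change in luminal cells and 0 a lower one (60% called, against 30.7% of all genes). The median difference was 0.75 against -0.05 for all genes. Luminal cells rose at 7 and fell at 0, and basal cells fell at 8 and rose at 1. Xbp1 (chr11:5520641-5525993) had the largest difference, 1.86 ± 0.21. It stood at 132 and 168 CPM in virgin and 509 and 568 CPM in pregnant luminal libraries, and at 73.3 and 88.0 CPM and then 81.6 and 77.4 CPM in basal ones. The basal groups overlapped and the luminal groups did not.

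P4hb (chr11:120560298-120573253), a protein disulfide isomerase, ran in opposite directions. It rose from 374 and 370 CPM to 583 and 554 CPM in luminal cells and fell from 426 and 404 CPM to 295 and 270 CPM in basal cells. With library size alone as the scaling the luminal change of P4hb was 0.11 and not called (edgeR adjusted p = 0.422). Sdf2l1, a partner of the chaperone BiP, stood at 17.1 and 16.9 CPM and then 27.5 and 15.7 CPM in luminal cells and fell from 17.2 and 15.5 CPM to 7.20 and 5.56 CPM in basal cells. Sec61a1, the pore subunit of the translocon, rose by 0.97 ± 0.12 in luminal cells (difference 1.04 ± 0.17). With library size alone as the scaling, 4 of the 20 genes were called higher and 1 lower, the list median was 0.41, and its distance from the median of all genes was 0.80, as in the reported fit.

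Promoters of these genes were searched for the ER stress response element, CCAAT and CCACG separated by 9 bases of any kind, on either strand, in RefSeq windows (GRCm38.p6) from 250 bases before to 50 bases after the gene start. It was found in 7 of the 16 list members with a window (43.8%) and in 22 of 11947 tested genes with one (0.184%). Of the 7, 4 were called higher in luminal cells, and their sites with 20 bases on each side are shown 5′ to 3′ on the gene's strand, with the element in capitals. In Calr and Creld2 it lies on the opposite strand and so reads CGTGG first and ATTGG last.
Hspa5 (chr2:34772005-34772063, plus strand): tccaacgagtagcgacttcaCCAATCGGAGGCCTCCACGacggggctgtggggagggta
Calr (chr8:84847055-84847113, minus strand): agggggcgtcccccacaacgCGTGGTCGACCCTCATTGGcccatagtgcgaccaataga
Pdia6 (chr12:17266471-17266529, plus strand): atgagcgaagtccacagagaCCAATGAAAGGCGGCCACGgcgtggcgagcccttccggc
Creld2 (chr15:88819500-88819558, plus strand): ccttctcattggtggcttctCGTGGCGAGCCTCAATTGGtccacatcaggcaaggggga

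Hspa5, the chaperone BiP, fell in basal cells from 2244 and 2055 CPM to 1557 and 1335 CPM and stood at 1010 and 1130 CPM and then 1345 and 1143 CPM in luminal cells. The basal fall of 0.57 was 0.46 without the second basal 18.5 dP library, with an edgeR adjusted p of 0.0743. The differences of Hspa5, Calr (a calcium-binding chaperone), Pdia6 (a disulfide isomerase) and Creld2 were 0.79, 0.83, 0.71 and 0.85 (edgeR adjusted p = 0.00755, 0.00439, 0.00443 and 0.019). Each stayed positive without any 1 library. With library size alone as the scaling all 4 lost their call, and Creld2 also lost it without 4 of the 8 single libraries, at adjusted p up to 0.0777. The element was also present at Hsp90b1, Canx and Dnajc3, whose differences of 0.39, 0.18 and -0.10 did not pass the test. These 7 genes were named for the motif, apart from the naming rule. Of the genes that rose in luminal and fell in basal cells 2 of 227 with a window held the element (0.881%), and of the reverse pattern 1 of 321 (0.312%).

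Prolactin signalling genes differed at 6 of 12 members (50% against 30.7% of all genes), with 2 higher and 4 lower in luminal cells. Stat5a (chr11:100859351-100885169) ran in opposite directions. It rose from 107 and 109 CPM to 188 and 167 CPM in luminal cells and fell from 80.0 and 80.8 CPM to 50.4 and 43.8 CPM in basal cells, a difference of 1.48 ± 0.20 (edgeR adjusted p = 0.000133). Its neighbour Stat5b fell from 36.5 and 33.3 CPM to 18.9 and 14.8 CPM in basal cells and stood at 59.7 and 63.4 CPM and then 74.0 and 74.9 CPM in luminal cells, where the change was not called. Without TMM scaling, by library size alone, the luminal change of Stat5a was 0.21 and not called (adjusted p = 0.24). Ptpn1, a phosphatase of this pathway, fell by 1.23 ± 0.12 in luminal cells with a difference of -1.06 ± 0.16. The near-identical coding sequences of Stat5a and Stat5b could share reads, and how reads with several positions were counted is not given in the sources used here.

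The consensus for STAT5, TTCNNNGAA on either strand, was found in the promoter windows of 4 of 10 milk protein genes (40%) and of 1014 of 11947 tested genes (8.49%). It was present at 7.49% of the genes that rose in luminal and fell in basal cells and at 8.72% of those with the reverse pattern, both near the share of all genes. The sites of 3 caseins and Glycam1 are shown in capitals on the gene's strand, 5′ to 3′, with 20 bases on each side, because these are the 4 list members with a match.
Csn1s1 (chr5:87666088-87666136, plus strand): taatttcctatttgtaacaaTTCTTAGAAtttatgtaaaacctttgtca
Csn2 (chr5:87699490-87699538, minus strand): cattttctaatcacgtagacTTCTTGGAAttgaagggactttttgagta
Csn1s2a (chr5:87774450-87774498, plus strand): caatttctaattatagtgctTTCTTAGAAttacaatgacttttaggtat
Glycam1 (chr15:103565198-103565246, minus strand): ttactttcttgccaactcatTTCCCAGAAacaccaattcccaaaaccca

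The site starts 100 bases before the gene start in Csn1s1, 93 in Csn2 and 145 in Glycam1, and 20 bases after it in Csn1s2a. The basal changes of the 4 genes were 5.12, 6.63, 7.16 and 7.63 for Csn1s1, Csn2, Glycam1 and Csn1s2a. After luminal carry-over was subtracted they were 11.36, 10.71, 3.46 and 11.91, and that of Glycam1 was no longer called (edgeR adjusted p = 0.0649). The share subtracted was estimated from the milk protein genes themselves. Mean virgin basal levels of the 3 caseins, 1.58% to 1.76% of the luminal ones, lay below that share (2.01% and 2.22%). Such counts were set to 0, so the 3 casein values after subtraction are not effect sizes. Basal levels of the 4 genes at 18.5 dP stood between 2.48% and 2.54% of the luminal means, near the share subtracted there (3.48% and 2.33%). The 3.46 of Glycam1 therefore rests on what was left of such counts.

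Genes of the hormone-sensing lineage mostly had a lower change in luminal than in basal cells. Of 12 genes, all tested, 8 had a lower change in luminal cells and 0 a higher one (66.7% called, against 30.7% of all genes). The median difference was -1.58. Luminal cells fell at 8 and rose at 2, basal cells fell at 5 and rose at 3, and 2 genes ran in opposite directions. The list had 6 called genes without either basal 18.5 dP library, and its median was -2.73 after luminal carry-over was subtracted. Pgr (chr9:8898900-8968611), the progesterone receptor, fell from 72.9 and 112 CPM to 6.81 and 6.11 CPM in luminal cells and stood at 13.9 and 13.4 CPM and then 19.7 and 21.1 CPM in basal cells. Its basal change of 0.58 ± 0.17 was called (edgeR adjusted p = 0.021) but not without any 1 of the 4 basal libraries (adjusted p 0.0516 to 0.102). At 18.5 dP both basal libraries were above both luminal ones. Esr1, the oestrogen receptor, fell from 64.9 and 51.5 CPM to 8.73 and 8.28 CPM in luminal cells, with basal libraries at 3.69 and 4.77 CPM and then 2.92 and 5.73 CPM, which overlapped. In such bulk libraries fewer cells of a type and less RNA per cell cannot be told apart.

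Wnt4, a ligand that progesterone induces in hormone-sensing cells, ran in opposite directions. It fell from 121 and 98.4 CPM to 63.5 and 44.2 CPM in luminal cells and rose from 5.46 and 5.15 CPM to 22.4 and 20.2 CPM in basal cells. Subtraction of estimated luminal carry-over raised the basal change of Wnt4 from 2.01 to 2.87. Cited1, a transcriptional cofactor of oestrogen receptor, fell in both layers, from 211 and 193 CPM to 7.03 and 8.28 CPM in luminal and from 3.93 and 3.41 CPM to 1.14 and 1.4 CPM in basal cells. The difference of Cited1 was -3.19 and became -12.37 after luminal carry-over was subtracted, which turned its basal change to 7.65. The virgin basal levels of Cited1 lay below the estimated carry-over and were set to 0, so these 2 values are not effect sizes. Prlr, the prolactin receptor, also fell in both, by 3.36 in luminal and 2.19 in basal cells (named after its values were seen). Its difference of -1.17 ± 0.29 was -0.83 and not called without the first basal 18.5 dP library (edgeR adjusted p = 0.102), and after luminal carry-over was subtracted, which set the basal change to 0, it was -3.36 (adjusted p = 1).

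Contractile genes rose in basal cells and rose less, or fell, in luminal cells. Of 20 genes, all tested, basal cells rose at 18 and fell at 0, and luminal cells rose at 8 and fell at 4. The difference was lower in luminal cells at 11 and higher at 1 (60% called, against 30.7% of all genes, median -0.77). After basal carry-over was subtracted 8 were lower and 1 higher (median -1.59). With library size alone as the scaling 14 were lower and 0 higher (median -1.1). Without the second luminal virgin library 7 of the 20 were called. Acta2, smooth muscle actin, rose from 4318 and 4226 CPM to 14460 and 17327 CPM in basal cells and from 8.10 and 15.1 CPM to 36.8 and 36.5 CPM in luminal cells. Its difference of -0.24 ± 0.34 did not pass the test. A set of 7 contractile genes put the basal RNA in the luminal libraries at 0.639% and 0.757% in virgin and 0.329% and 0.343% in pregnant mice, were they all carried over. The estimate pools the 7 genes, Acta2 among them, and the luminal levels of Acta2 lay below it, so the subtraction set them to 0. For such a gene it can remove more than was carried over.

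The genes that ran apart were others of the same list. Synm (chr7:67730161-67759742), the intermediate filament protein synemin, rose from 110 and 85.9 CPM to 632 and 967 CPM in basal cells and fell from 5.95 and 5.74 CPM to 2.06 and 3.60 CPM in luminal cells. Its luminal fall of 1.06 was 0.71 and not called without the first luminal 18.5 dP library (edgeR adjusted p = 0.0909), and the difference of -4.09 ± 0.35 became -7.97 after basal carry-over was subtracted. The subtraction set Synm to 0 in the first luminal 18.5 dP library, so -7.97 is not an effect size. Smtn, smoothelin, rose from 630 and 588 CPM to 986 and 1282 CPM in basal cells and fell from 37.1 and 50.6 CPM to 19.3 and 22.6 CPM in luminal cells. Tpm1, a tropomyosin, rose by 1.02 ± 0.16 and fell by 0.51 ± 0.16, the latter not called without the first luminal 18.5 dP library (adjusted p = 0.203) or the second luminal virgin library (adjusted p = 0.137). Cald1, caldesmon, rose by 1.35 ± 0.23 in basal cells with a difference of -1.87 ± 0.33. The 1 gene with a higher change in luminal cells was Oxtr, the oxytocin receptor (named after its values were seen), at 17.2 and 12.6 CPM and then 38.6 and 44.5 CPM in luminal cells and 375 and 265 CPM and then 340 and 523 CPM in basal cells. The call of Oxtr (difference 1.05, edgeR adjusted p = 0.0294) was lost without any 1 of 4 libraries, at adjusted p up to 0.113.

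The CArG box, the site of serum response factor, was found at 3 of 16 contractile genes with a window (18.8%) against 1.61% of all tested genes, 1.76% of the genes with luminal rise and basal fall and 1.87% of those with the reverse pattern. The third gene, Vcl, had a difference of -0.44 that did not pass the test (edgeR adjusted p = 0.152), and 25.5% of its exon length overlaps another gene. Myl9 (myosin light chain) and Srf (serum response factor itself) are shown with each box in capitals, because both had a called difference. Srf holds 2 boxes.
Myl9 (chr2:156775283-156775332, plus strand): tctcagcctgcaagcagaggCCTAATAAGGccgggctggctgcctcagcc
Srf (chr17:46556215-46556264, minus strand): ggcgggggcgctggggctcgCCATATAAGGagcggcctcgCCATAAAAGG

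Srf rose from 177 and 172 CPM to 267 and 286 CPM in basal cells and stood at 129 and 164 CPM and then 138 and 141 CPM in luminal cells (difference -0.74, edgeR adjusted p = 0.00453). Myl9 rose by 1.92 in basal cells, and its difference of -0.95 (adjusted p = 0.0385) was not called without any 1 of 6 libraries, at adjusted p up to 0.215. After subtraction of basal carry-over, which set the luminal change of Myl9 to 0, the difference was -1.92 (adjusted p = 1).

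The basement membrane genes parted in the same sense. Of 20 genes, all tested, 11 had a lower change in luminal cells and 2 a higher one (65% called, against 30.7% of all genes). The median difference was -1.17, with 9 luminal falls and 7 basal rises. Col4a1 (chr8:11198423-11312889), the main collagen IV chain, rose from 1382 and 1894 CPM to 4076 and 3706 CPM in basal cells and fell from 66.2 and 64.2 CPM to 37.0 and 36.0 CPM in luminal cells. Its partner chain Col4a2 rose by 1.05 and fell by 0.66, and the laminin chain Lamc1 rose by 0.63 and fell by 0.65 (both named after their values were seen). After basal carry-over was subtracted the luminal change of Col4a2 was -1.43, and its difference went from -1.71 to -2.48. Other chains fell in luminal cells with no called basal change. Col4a6 fell from 69.9 and 60.7 CPM to 4.97 and 9.22 CPM in luminal cells and stood at 288 and 339 CPM and then 183 and 256 CPM in basal cells. Both pregnant basal libraries lay below both virgin ones, and the basal change of Col4a6 (-0.51, edgeR adjusted p = 0.101) was called in 5 alternatives, among them those without either luminal 18.5 dP library. Lama3, a chain of laminin 332, fell from 58.0 and 36.9 CPM to 5.78 and 11.4 CPM in luminal cells with no called basal change. Its partner Lamb3 did the reverse, rising from 60.8 and 55.5 CPM to 161 and 217 CPM in luminal cells with basal libraries at 552 and 615 CPM and then 468 and 620 CPM (named after its values were seen). Nid2, which links laminin to collagen IV, fell by 1.84 ± 0.32 in luminal cells.

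Of 18 tested matrix proteases and inhibitors (20 listed) 1 was higher and 3 lower (22.2% called, against 30.7% of all genes). Besides Adamts5, Mmp14, a membrane-bound collagenase, fell from 156 and 134 CPM to 13.8 and 23.0 CPM in luminal cells and stood at 178 and 171 CPM and then 138 and 136 CPM in basal cells. Mmp15 fell by 1.16 in luminal and rose by 0.55 in basal cells, the latter call resting on the first basal 18.5 dP library (adjusted p = 0.187 without it) and on the second basal virgin library (adjusted p = 0.174 without it). Timp3, an inhibitor of these enzymes, fell by 2.04 ± 0.19 in luminal cells, although 21.3% of its exon length overlaps another gene.

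**Figure D4:**
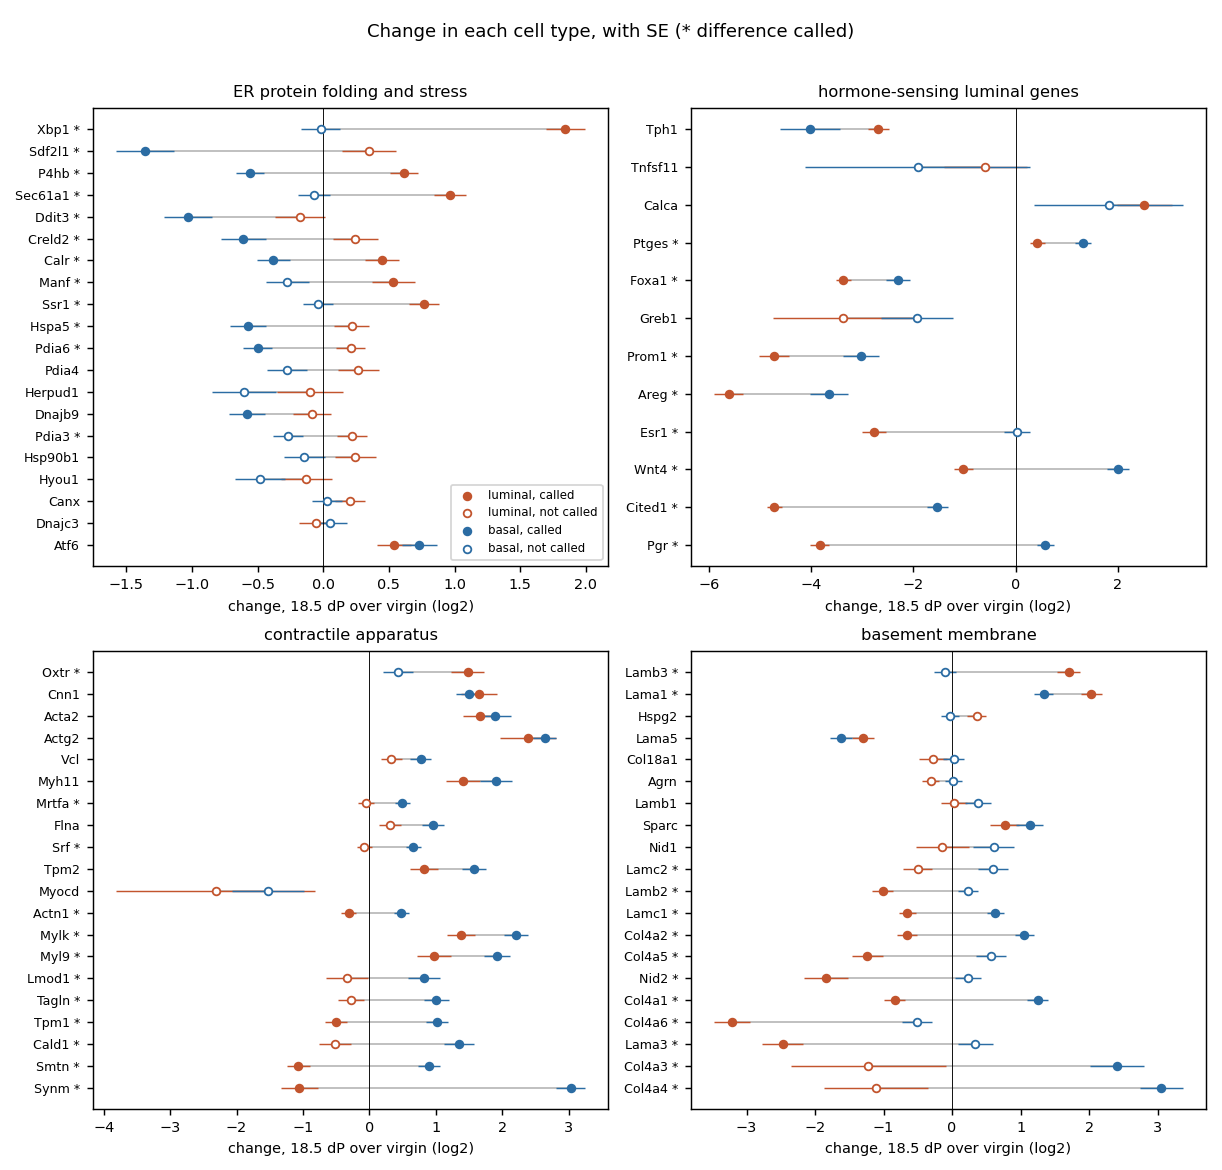
Log2 change from virgin to 18.5 dP in luminal (orange) and basal (blue) cells for each gene of 4 lists, with SE; filled points passed the test in that cell type and a star marks a called difference. Luminal points lie to the right for 12 starred ER genes, and to the left for 8 hormone-sensing, 11 contractile and 11 basement membrane genes.

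Keratins and layer markers moved less uniformly. Of 12 keratins 2 were higher and 4 lower in luminal cells (50% called, against 30.7% of all genes). Krt14, a basal keratin, rose in luminal libraries from 16.7 and 33.7 CPM to 216 and 271 CPM, against 3658 and 4418 CPM and then 4202 and 5449 CPM in basal libraries, a difference of 3.01 ± 0.39. The difference of Krt14 was 3.61 without the second luminal virgin library and 5.89 after basal carry-over was subtracted. That subtraction set Krt14 to 0 in the first luminal virgin library, so 5.89 is not an effect size. Krt5, which pairs with it, stood at 3.76 and 3.78 CPM and then 3.94 and 3.99 CPM in luminal libraries, and its difference was not called (edgeR adjusted p = 1). Krt6a fell in luminal cells from 84.1 and 116 CPM to 0.582 and 0.493 CPM, against 23.0 and 22.2 CPM and then 19.0 and 26.1 CPM in basal libraries. Krt6a is uncertain, since 24.8% of its exon length overlaps another gene and near-identical copies exist. Krt17 fell by 0.91 ± 0.21 in basal cells (difference 1.18 ± 0.30), a fall that was not called without the first basal 18.5 dP library (adjusted p = 0.0523). After basal carry-over was subtracted the difference of Krt17 was 11.95, which is not read as an effect size because that step can set low luminal counts to 0.

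Of 14 basal identity genes 5 were higher in luminal cells and 1 lower (42.9% called, against 30.7% of all genes). Itgb4, the integrin of hemidesmosomes, fell from 225 and 183 CPM to 46.3 and 67.6 CPM in basal cells and stood at 87.2 and 94.0 CPM and then 69.3 and 89.2 CPM in luminal cells, which overlapped. Basal cells thus lost the higher level of Itgb4 that they had in virgin mice. Vim, vimentin, was the 1 lower gene and fell from 25.5 and 25.6 CPM to 8.47 and 8.28 CPM in luminal cells. Of 12 luminal identity genes 1 was higher and 1 lower (16.7% called, against 30.7% of all genes). Cd24a, a surface glycoprotein, rose from 462 and 605 CPM to 1062 and 1196 CPM in luminal cells.

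Signalling lists are given with their called share, to be read against 30.7% of all genes. Of 24 tested WNT pathway genes (26 listed) 6 were higher and 7 lower (54.2%). Wnt5a fell in luminal cells from 32.5 and 44.7 CPM to 1.88 and 2.27 CPM, with basal libraries at 16.1 and 17.9 CPM and then 11.4 and 12.8 CPM, so that the higher layer changed from luminal to basal. Sfrp1, a secreted WNT antagonist, rose in luminal cells by 1.65 ± 0.29. Of 16 Notch genes 5 were lower in luminal cells and 0 higher (31.2%, at the background). Hey1, a target of Notch, fell from 34.5 and 24.0 CPM to 0.941 and 0.542 CPM in luminal cells and from 14.7 and 12.1 CPM to 5.94 and 3.83 CPM in basal cells. The ligand Jag1 fell by 1.86 ± 0.13 in luminal cells, with no called change in basal cells. Nrarp and Dll1, also named by the rule, are left as uncertain because 79.4% and 20.5% of their exon length overlaps another gene.

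Of 21 TGF-beta and BMP genes 4 were higher and 6 lower (47.6%). The 2 receptors of TGF-beta moved in unlike ways: Tgfbr1 stood at 87.2 and 80.7 CPM and then 117 and 121 CPM in luminal cells and at 195 and 195 CPM and then 155 and 143 CPM in basal cells. Its luminal rise of 0.50 was 0 with library size alone as the scaling, and its basal fall of 0.39 lost its call without any 1 of 3 basal libraries, at adjusted p up to 0.129. Tgfbr2 rose from 62.3 and 73.2 CPM to 116 and 125 CPM in basal cells and stood at 84.8 and 89.1 CPM and then 85.9 and 92.9 CPM in luminal cells. The BMP targets Id3 and Smad6 had lower changes in luminal cells, with differences of -1.72 ± 0.20 and -1.94 ± 0.28. Of 13 EGF genes 2 were higher and 3 lower (38.5%). Of 16 insulin and IGF genes 2 were higher and 5 lower (43.8%), and Igfbp4, which binds IGF, fell from 8.0 and 12.9 CPM to 2.24 and 2.27 CPM in luminal cells and rose from 51.6 and 99.8 CPM to 190 and 187 CPM in basal cells.

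Of 15 tested BCL2 family genes (16 listed) 1 was higher and 4 lower (33.3%). Bcl2, a survival factor, fell from 38.2 and 28.4 CPM to 4.08 and 5.23 CPM in luminal cells and from 31.4 and 33.4 CPM to 20.4 and 18 CPM in basal cells. Bcl2l1, which encodes the survival factor BCL-XL, rose instead, from 70.6 and 89.1 CPM to 244 and 276 CPM in luminal and from 32.2 and 26.2 CPM to 54.2 and 46.0 CPM in basal cells. Bok, a pro-apoptotic member, fell by 2.24 ± 0.25 in luminal cells. Of 20 chemokine and cytokine genes 3 were higher and 4 lower (35%). Lif, which activates STAT3, rose from 41.3 and 47.8 CPM to 151 and 141 CPM in basal cells and stood at 508 and 513 CPM and then 390 and 622 CPM in luminal cells. Of 20 interferon and antigen presentation genes 1 was higher and 3 lower (20%), and Stat2, which carries the interferon signal, fell by 1.45 ± 0.13 in luminal cells with no called change in basal cells.

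Of 24 cholesterol genes 4 were higher and 7 lower in luminal cells (45.8% against 30.7% of all genes). Sqle, squalene epoxidase, fell from 72.7 and 68.9 CPM to 42.3 and 37.8 CPM in luminal cells and rose from 56.8 and 62.4 CPM to 100.1 and 98.1 CPM in basal cells. Mvd, an earlier enzyme of the pathway, rose by 1.2 ± 0.16 in luminal cells (difference 1.57 ± 0.23). Of 18 glycolysis and hypoxia genes 3 were higher and 4 lower (38.9% called). Pfkl, a phosphofructokinase, rose from 97 and 96.3 CPM to 382 and 330 CPM in luminal and from 107 and 89.7 CPM to 179 and 155 CPM in basal cells. Hif1a, the hypoxia factor, rose by 1.00 ± 0.17 in basal cells and stood at 138 and 184 CPM and then 152 and 156 CPM in luminal cells.

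Of 15 genes of the ATF4 and amino acid programme 5 were higher and 2 lower (46.7% called, against 30.7% of all genes). Psat1, which makes phosphoserine, rose more in basal cells, from 30.8 and 31.4 CPM to 159 and 125 CPM against 44.2 and 45.2 CPM to 98.5 and 69.1 CPM in luminal cells. With library size alone as the scaling the luminal change of Psat1 was 0.41 and not called (edgeR adjusted p = 0.0629). Asns, asparagine synthetase, rose by 1.45 ± 0.11 in luminal and 0.61 ± 0.11 in basal cells. Ddit4, an inhibitor of mTORC1, fell from 176 and 145 CPM to 47.4 and 51.9 CPM in luminal cells and stood at 219 and 265 CPM and then 249 and 246 CPM in basal cells. Of 25 oxidative phosphorylation genes 17 rose in luminal and 23 in basal cells. In the difference 1 was called higher and 3 lower (16%, against 30.7% of all genes), and 0 and 11 with library size alone as the scaling. Tight junction genes differed at 1 of 12 (8.33%, against 30.7% of all genes), and at 2 with the mouse as replicate block. The 1 gene was F11r, which encodes the junctional adhesion molecule JAM-A and rose by 0.40 in luminal and fell by 0.54 in basal cells. The luminal rise of F11r was not called without the second luminal 18.5 dP library (edgeR adjusted p = 0.0665) or the first luminal virgin library (adjusted p = 0.0508), and it turned to -0.11 with library size alone as the scaling.

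No gene of the cell cycle or ribosomal protein lists was called in the difference. Of 30 cell cycle genes 0 were called in the difference by edgeR, 4 had an unadjusted p below 0.05, and DESeq2 called 0 and the edgeR fit with the mouse as block 6. The median difference of the 30 genes was 0.1 in the reported fit, -0.46 without the first luminal 18.5 dP library and 0.36 without the second. Their summed level was 937 CPM in the first and 520 CPM in the second of these libraries, which thus pulled the difference in opposite directions. Of 25 cytosolic ribosomal protein genes 0 were called by edgeR, 1 had an unadjusted p below 0.05, and DESeq2 and the blocked fit called 1 each. Immediate early genes, which respond to tissue dissociation, fell at 14 of 20 in each layer. They differed at 4 (20%, against 30.7% of all genes), and at 8 with the mouse as replicate block. Fosl2 was among the 4 called in the reported fit and fell by 1.47 ± 0.12 in basal cells, from 780 and 697 CPM to 280 and 253 CPM. Its luminal levels were 516 and 614 CPM and then 508 and 505 CPM. The median difference of the 20 genes was -0.04.

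**Figure D5:**
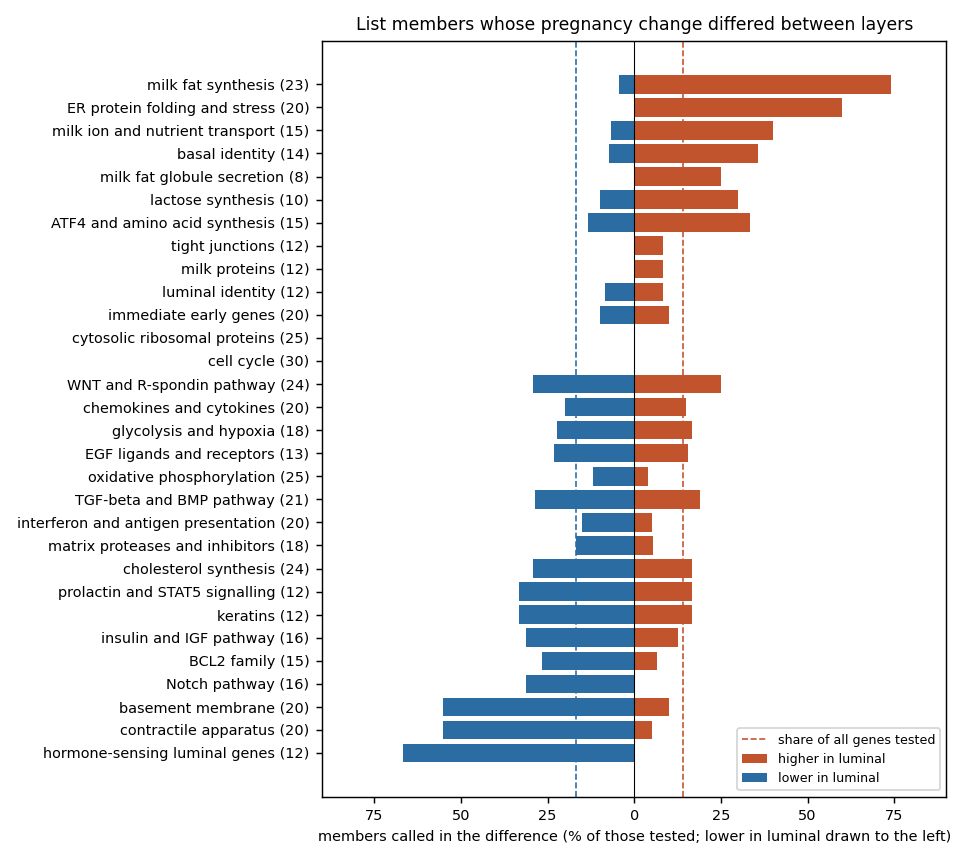
Share of the tested members of each list (number tested in brackets) whose pregnancy change was higher (orange, right) or lower (blue, left) in luminal than in basal cells, with the shares over all 15969 genes tested as dashed lines at 14% and 16.7%. Milk fat synthesis and ER protein folding reach furthest to the right, hormone-sensing, contractile and basement membrane genes furthest to the left, and cell cycle and ribosomal protein genes have no bar.

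Among the 2510 called genes that met the stability and level criteria for naming, the highest differences were those of Lpo, Xylt1, Gprin3, Cd36, Aqp9, Apln, Rgs16 and Calml3. Lpo, the lactoperoxidase of milk, rose from 0.251 and 0.473 CPM to 12.1 and 17.3 CPM in luminal cells and stood at 3.55 and 1.89 CPM and then 1.88 and 1.65 CPM in basal cells. Apln, the peptide hormone apelin, rose from 1.47 and 1.05 CPM to 95.9 and 83.8 CPM in luminal cells and from 1.39 and 1.21 CPM to 4.32 and 2.22 CPM in basal cells. The difference of Apln was 4.82 and grew to 6.49 after luminal carry-over was subtracted. Its basal rise was not called without the first basal 18.5 dP library (edgeR adjusted p = 0.0647) and turned to -0.33 under the same subtraction. Rgs16, a regulator of G protein signalling, rose from 12.4 and 15.7 CPM to 233 and 444 CPM in luminal cells. Xylt1, a xylosyltransferase that starts proteoglycan chains, rose by 5.88 ± 0.33, and Calml3, a calmodulin-like protein, by 5.08 ± 0.51, neither with a called basal change. Aqp9, a channel for glycerol and water, and Gprin3 rose by 2.43 and 3.65 in luminal cells and fell by 2.47 and 1.79 in basal cells, and the difference of Gprin3 went from 5.44 to 7.45 after basal carry-over was subtracted.

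The lowest differences among the same 2510 genes were those of Pcdhac2, Ptn, Cnmd, Fgg, Enho, Optc, Krt6a and Fut9. Ptn (chr6:36714924-36810179), the heparin-binding growth factor pleiotrophin, fell from 1074 and 1231 CPM to 2.73 and 2.42 CPM in luminal cells and stood at 122 and 124 CPM and then 87.6 and 97.3 CPM in basal cells (difference -8.39 ± 0.19). The basal fall of Ptn by 0.41 was called, but not without either basal virgin library or the first basal 18.5 dP library (edgeR adjusted p up to 0.114). Luminal cells thus passed from above to below the basal level. Fgg, the fibrinogen gamma chain, fell from 236 and 238 CPM to 1.16 and 0.937 CPM in luminal cells and stood at 60.8 and 105 CPM and then 81.4 and 116 CPM in basal cells. Pcdhac2, a protocadherin, had 300 and 431 counts in virgin and 0 in both pregnant luminal libraries, at least 181-fold lower against a floor of 3 counts over the group, and 48.6% of its exon length overlaps other genes. Optc, the matrix protein opticin, had 13 and 10 counts and then 0, at least 5.68-fold lower by the same floor, and rose by 1.6 ± 0.22 in basal cells.

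The layer with the higher level was called in opposite senses at the 2 stages for 438 genes (2.74% of those tested). Of these, 252 were higher in luminal cells of virgin and in basal cells of pregnant mice, and 186 the reverse. All 438 were called in the difference. That difference is the pregnant layer gap minus the virgin one in the same fit, so these calls add no separate evidence. Of the 726 opposite genes, 60 of the 299 and 67 of the 427 were among them. By the smaller of the 2 layer gaps, a ranking added after the values were seen, the strongest changes from basal to luminal were at Lpo, Cd36, St6gal1, Gnb4, Rgs16, Gata2, Slc7a8 and Slco2b1. St6gal1, a sialyltransferase, rose from 13.2 and 10.9 CPM to 124 and 134 CPM in luminal cells and fell from 51.8 and 52.4 CPM to 32.9 and 27.6 CPM in basal cells. Gata2, a transcription factor, rose from 0.502 and 0.743 CPM to 7.39 and 9.02 CPM in luminal cells and stood at 1.98 and 2.31 CPM and then 1.4 and 1.48 CPM in basal cells. From luminal to basal the strongest, beside the genes above, included Slc7a2, a transporter of cationic amino acids, at 330 and 300 CPM and then 13.3 and 19.3 CPM in luminal and 45.9 and 56.2 CPM and then 72.4 and 85.5 CPM in basal cells, and Apod, apolipoprotein D, at 16.1 and 18.4 CPM and then 0.403 and 0.493 CPM in luminal and 3.13 and 5.15 CPM and then 4.83 and 5.15 CPM in basal cells.

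Markers of other cells moved with some of these results. The called shares were 7.69% for endothelial, 18.2% for fibroblast, 42.9% for pericyte, 11.1% for leukocyte, 33.3% for adipocyte and 16.7% for Schwann cell markers. Over all genes the share was 30.7%. Of 13 endothelial markers 11 fell in each layer, with summed levels of 140.4 and 178 CPM and then 44.9 and 35.2 CPM in luminal and 383 and 629 CPM and then 153 and 198 CPM in basal libraries, and 1 was called in the difference (2 with the mouse as replicate block). Of 11 fibroblast markers 2 were lower in luminal cells (5 with the block), among them Dcn, the proteoglycan decorin, with a luminal change of -5.17 and a basal one of 2.82 (named after its values were seen). The luminal change of Dcn was -4.57 without the first luminal virgin library, and its difference went from -7.99 to -7.39. Without Dcn the fibroblast markers summed to 119.5 and 286 CPM and then 97.6 and 100.3 CPM in luminal and to 270.1 and 355 CPM and then 302 and 382 CPM in basal libraries. Of 7 pericyte markers 3 were lower in luminal cells, with sums of 159 and 170.5 CPM and then 79.0 and 75.9 CPM in luminal and 89.4 and 116 CPM and then 72.2 and 103 CPM in basal libraries. The luminal sums were mostly Notch3 (named after its values were seen), with 4267 and 4833 counts in virgin and 1705 and 1501 in pregnant luminal libraries. Its basal counts were 1042 and 1264 and then 474 and 718. No other pericyte marker had over 73 counts in a luminal library. Of 9 tested leukocyte markers (13 listed) 1 was lower. Of 6 tested adipocyte markers (10 listed) 2 were lower (4 called with the block). The members differed in level. Plin4, a lipid droplet coat protein, had 156 and 333 counts in virgin and 3689 and 3927 in pregnant basal libraries, and Lep, leptin, had 31 and 57 and then 392 and 1520. Fabp4 had 2526 to 6815 counts in the basal libraries, and Adipoq and Cidec had 0 to 3 counts in every library (these 5 named after their values were seen). Of 6 tested Schwann cell markers (7 listed) 1 was higher in luminal cells (2 called with the block), and of 4 tested erythroid markers (7 listed, 1 absent from the table) 0 were called by edgeR or DESeq2 and 0 had an unadjusted p below 0.05. The part of these other cells in the basement membrane and matrix results was not tested.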

How the data were processed

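RNA sequencing measured gene expression in sorted luminal and basal mammary cells. The authors deposited raw counts of reads per gene for 12 libraries, and the single-library count files differed from the deposited table in 0 values. The submitters' processing notes name CASAVA 1.8.2, Subread 1.4.4 with featureCounts, GRCm38 and mm10, without roles. The sources used here give no strand setting, multi-mapping rule or annotation version. Of 27179 gene identifiers 25275 matched RefSeq symbols (GRCm38.p6). The deposited table also holds each gene's length in bases, which was not used.

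From these counts edgeR 4.0.16 (R 4.3.3, limma 3.58.1) fitted 6 group means to the 12 libraries with TMM scaling, a minimum count of 10 in filterByExpr and quasi-likelihood F-tests. The fit left 15969 genes, 6 residual degrees of freedom and a biological coefficient of variation of 11.6%. P-values were adjusted over all genes tested (Benjamini-Hochberg), and a gene was called below 0.05. Levels are CPM (counts scaled to a common total) of the TMM-scaled library, and the standard error is the log2 difference divided by the square root of F. The script was tested on simulated data. Python 3.11.15 was used for the summaries.

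Within each stage, luminal and basal libraries with the same number deviated together from their group means (r = 0.249 for virgin, 0.355 for pregnancy and 0.161 for lactation over 9096 genes). Groups of different stages, which cannot share a mouse, gave r from -0.277 to 0.164, a range that holds the lactation value. That the numbers pair the samples as mice is therefore an assumption, made for the block. The alternatives were another scaling, library size alone, DESeq2 1.42.0, no filter, the 8 libraries alone, each of the 8 left out, subtraction of carry-over between layers, and the blocks. Carry-over into a basal library was estimated from its share of milk protein counts, and into a luminal library from 7 contractile genes. Counts below the amount subtracted were set to 0, and a change that rests on such counts is not an effect size.

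The comparison, the 37 gene lists (596 entries, 595 in the table) and the naming rule were chosen with earlier results of these data known, so no list is independent evidence of its direction. Named were the 12 opposite genes of each pattern, the 8 highest and 8 lowest differences and up to 4 called genes per list, all stable when single libraries were left out and at 5 CPM or more in some group, beside 6 layer markers and the milk protein, contractile and hormone-sensing genes, whatever their call. Genes outside it are marked, and those with a promoter motif were named for it.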

Additional observations from a re-analysis of the deposited data

Results flagged for a closer look

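Effects under the same contrast ran in opposite directions in the 2 cell types for the 24 genes below, where the luminal change, the basal change and the difference between them each passed the edgeR quasi-likelihood test. Every other gene of the 726 opposite ones meets the same condition, and these 24 are the ones named by rule. With luminal rise and basal fall, the log2 difference was 3.78 for Grrp1, 3.87 for Slc7a8, 3.32 for Mab21l4, 2.95 for Pdzrn3, 4.40 for Adamts5, 4.31 for Tnc, 3.06 for Lmo2, 2.53 for Dkk3, 2.44 for Sowahb, 3.53 for Rapgef5, 4.46 for Adgrg2 and 3.25 for Gda. With luminal fall and basal rise, it was -8.32 for Cnmd, -5.75 for Pgm5, -5.33 for Cav1, -4.24 for Hcar2, -4.04 for Gmpr, -7.15 for Fut9, -7.93 for Enho, -6.10 for Nqo1, -4.08 for Dmpk, -4.35 for Alcam, -3.71 for Kif21b and -4.43 for Lmo7. Groups of 2 libraries are too small for a search for single libraries that stand apart.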

How the results depend on the processing

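The count of 4908 called differences was 4842 with DESeq2 size factors, 4759 with DESeq2, 4868 without a filter, 4320 on 8 libraries, and 5069 and 4905 after subtraction of luminal and basal carry-over. Library size alone gave 1008 higher and 4614 lower genes and 149 with luminal rise and basal fall. Leaving out 1 library gave 3709 to 4467 differences (1628 to 2038 higher, 2056 to 2429 lower) and 420 to 653 opposite genes (166 to 272 with luminal rise, 254 to 383 with luminal fall), with the lowest opposite counts all without the second basal 18.5 dP library. With the mouse as replicate block 5695 genes were called (2667 higher, 3028 lower), and with the replicate number as block 4974, of which 768 ran in opposite directions, and neither block moved its count by over 1.5 times. The opposite-direction count could not be had with the mouse as block, which leaves the single stage changes without an estimate. With the mouse as block the differences of Krt8 (log2 difference of Krt8 -0.703, edgeR adjusted p = 0.00356) and Fabp4 (log2 difference of Fabp4 -0.611, edgeR adjusted p = 0.0107) gained their call. No other named gene's difference gained or lost one, with Notch3 and Vcl left out of that count. The difference of Krt8 (edgeR adjusted p = 0.0588 as reported) was also called with DESeq2 (DESeq2 adjusted p = 0.029). Of the other edgeR alternatives that kept all 8 libraries of the contrast, 4 called it. These were the 8 libraries alone (adjusted p = 0.0352), no filter (0.0216), library size alone (0.00333) and luminal carry-over subtracted (0.0397). Without the second luminal 18.5 dP library the difference of Krt8 was -0.83. Over all alternatives the called members stayed within 1.5 times of the reported count for milk fat, lactose, transport, hormone-sensing, basement membrane, cholesterol, WNT and Notch genes. They ranged from 0 to 2 for milk proteins (1 reported), 1 to 3 for fat globule genes (2), 7 to 15 for contractile genes (12), 5 to 14 for ER folding genes (12), 0 to 6 for cell cycle genes (0), 2 to 11 for oxidative phosphorylation (4), 2 to 8 for immediate early genes (4), 4 to 8 for ATF4 genes (7), 6 to 12 for TGF-beta and BMP genes (10), 3 to 6 for the BCL2 family (5), 2 to 6 for interferon genes (4), 6 to 11 for cytokines (7) and 1 to 5 for luminal identity (2). For markers of other cells they ranged from 1 to 6 for fibroblasts (2), 0 to 2 for endothelium (1), 1 to 4 for pericytes (3), 0 to 1 for leukocytes (1), 1 to 4 for adipocytes (2) and 1 to 2 for Schwann cells (1). A few differences that did not pass the test changed sign. Library size alone gave -0.167 for Canx and -0.167 for Krt18, and the 8 libraries alone gave 0.0202 for Krt5. Leaving out 1 library gave -0.276 to 0.0433 for Dnajc3, -0.159 to 0.146 for Krt5, -0.0381 to 0.376 for Krt18, -0.134 to 0.0843 for Epcam and -0.614 to 0.283 for Acta2. The cause was not tested. With 2 libraries per group, a low basal level near the estimated carry-over limits what can be said of that gene.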
